A study of Homo sapiens with 6 samples.

Results

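The genes of the Wnt pathway that carry the signal from the outside of the cell to β-catenin, together with those that switch it off again, were examined in A549 cells with and without the MIR21 gene. All 19 protein-coding WNT genes and all 10 FZD genes listed in the deposited table were taken, plus 23 named genes for co-receptors, secreted antagonists, the β-catenin destruction complex, TCF/LEF factors and feedback. This gave 52 of 58174 listed genes, of which 19799 are protein-coding. Members were chosen by name, with earlier results of these data known. A549 is an established cell line from a human lung adenocarcinoma. PolyA RNA of 3 libraries of parental A549 cells (Ctrl) was compared with that of 3 libraries of A549 cells lacking the MIR21 locus (MIR21-KO), all harvested 48 h after seeding and grown in the same medium with serum. MIR21 had been removed with Cas9 and a pair of sgRNAs, and MIR21-KO cells were grown from single sorted cells, while Ctrl cells were the parental population. How many clones stand behind the 3 MIR21-KO libraries is not given, so features of a clone and effects of the deletion cannot be told apart. The comparison asks which Wnt pathway mRNAs differ when the miR-21 locus is missing.

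Wnt proteins are secreted lipid-modified ligands that bind Frizzled receptors. With the co-receptors LRP5 and LRP6 they stop the destruction complex of AXIN1, APC and GSK3B from marking β-catenin (CTNNB1) for degradation, and β-catenin then activates target genes with TCF/LEF factors. Other Wnt proteins act without β-catenin, among others through ROR1, ROR2 and RYK. The pathway restrains itself: AXIN2, NKD1, RNF43, ZNRF3 and DKK1 are feedback inhibitors and well-known targets of the pathway in many tissues, and R-spondins, bound by LGR receptors, keep RNF43 and ZNRF3 from removing Frizzled receptors from the cell surface.

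Values are FPKM (fragments scaled to the length of the gene and to the size of the library), a level per gene length. Levels of different genes can be set side by side only as far as the listed length matches the transcripts expressed. Summed levels and shares rest on this too. The reads behind the values summed to between 10631667 and 14345209 per library, and 1 read of a 1 kb gene amounted to 0.0731 to 0.0930 FPKM. MIR21 itself was listed at 0 in all 6 libraries, which checks nothing, since polyA libraries do not capture this short RNA. All 7 epithelial and A549 markers had a mean of at least 0.5 FPKM over the libraries and summed to 4172 to 4331 FPKM in Ctrl and 4209 to 4669 in MIR21-KO, with CDH1 the only one of them called (lower). Of 7 fibroblast markers 2 reached that level, with sums of 5.60 to 5.91 and 5.48 to 7.82 FPKM and COL1A2 at 0. None of the 5 endothelial markers (sums of at most 0.154 FPKM) and none of the 5 leukocyte markers (at most 0.369, CD3E at 0) did. In such bulk samples, fewer cells with a transcript and less of it per cell cannot be told apart.

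Of the 52 members, 33 had a mean of at least 0.5 FPKM and were tested in the same limma fit as the other genes, 16006 in all. A gene was called when its Benjamini-Hochberg adjusted p-value (FDR) was under 0.01. Fold changes are MIR21-KO minus Ctrl on log2(FPKM + 0.1), a scale that understates changes of low genes. Called higher in MIR21-KO were 3 members, WNT5B, DKK3 and FZD7 (background 7.66% of all tested genes). Called lower were 7, namely DKK1, WNT10B, FZD9, LGR4, ZNRF3, FZD8 and WNT7B (background 8.38%). Together that was 30.3% of the tested members against 16.0% of all tested genes. The 3 Ctrl and the 3 MIR21-KO values did not overlap for 21 of the 33 members (63.6%), against 48.1% of all tested genes. Since members were chosen with earlier results of these data known, these shares are descriptions. The median log2 fold change was -0.04 over the tested members and -0.02 over all tested genes, so members moved in both directions. At an FDR under 0.05, 15 members were past the limit (background 32.0%). WNT5B passed the filter on low values only through its MIR21-KO libraries, and WNT10B and FZD9 only through Ctrl, so that these had to differ and their part in the counts supports nothing. When a single Ctrl library was left out, whichever it was, 3 members were called lower, and 4 when MIR21-KO replicate 2 was left out.

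**Figure D1:**
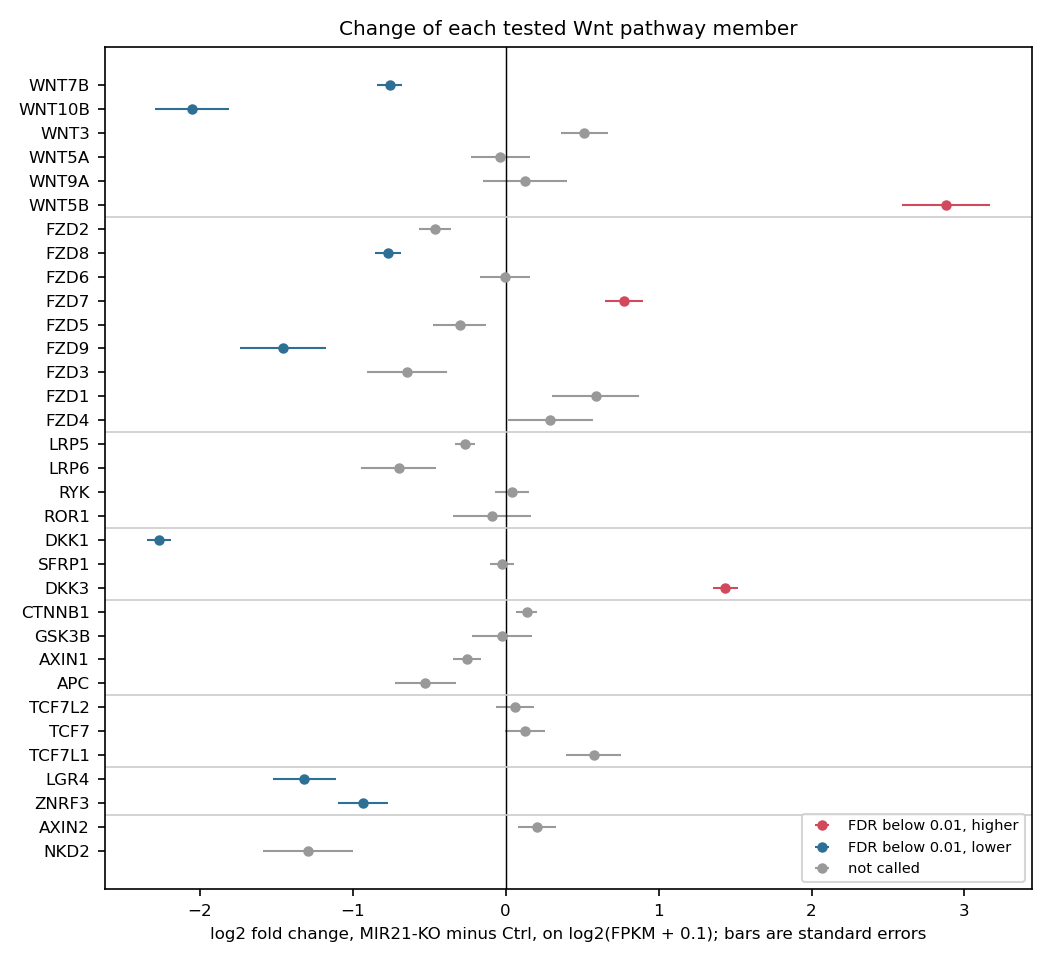
Log2 fold change of the 33 tested members on log2(FPKM + 0.1), MIR21-KO minus Ctrl, with standard errors from limma (n = 3 per group). Red points are the 3 members called higher, blue points the 7 called lower at an FDR below 0.01, and grey lines separate the roles; WNT5B (2.88) and DKK1 (-2.27) lie farthest from 0.

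The mature miR-21-5p, part of the sequence that the knockout removes, is shown first, with the places where members could pair with it. hsa-miR-21-5p has 22 bases and lies at chr17:59841273-59841294 on the plus strand (RefSeq, GRCh38.p14), with its seed, bases 2 to 8, in capitals.
miR-21-5p: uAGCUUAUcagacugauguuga
The longest annotated 3′ UTR of each gene was searched on its own strand for the seed match ATAAGCT (7mer-m8), the same followed by A (8mer), TAAGCTA (7mer-A1) and TAAGCT (6mer), each gene being counted under its longest match. None of the 10 called members had an 8mer or a 7mer, and for ZNRF3 and DKK3 the best match was a 6mer. Of the 33 tested members, 4 had a 7mer-m8 (LRP6, ROR1, APC and GSK3B), 1 a 7mer-A1 (WNT5A), 6 a 6mer and 22 none. The shares among 11657 tested protein-coding genes with a 3′ UTR were 2.98% for an 8mer, 7.58% for a 7mer-m8, 4.59% for a 7mer-A1 and 14.3% for a 6mer. The sites below are shown because they are the matches of 7 bases in tested members, with the match in capitals and coordinates from GENCODE 29 (GRCh38). All lie in exons that are 3′ UTR of the transcript used.
LRP6 (7mer-A1, chr12:12118340-12118369, minus strand): atactttgtgtgcaccacagTAAGCTAttc
LRP6 (7mer-m8, chr12:12116074-12116103, minus strand): tttttgattattacaataaATAAGCTgaat
ROR1 (7mer-m8, chr1:64180589-64180618, plus strand): acatatttttgtggcataaATAAGCTgatt
GSK3B (7mer-m8, chr3:119821638-119821667, minus strand): ggacagtttttaaatgtgtATAAGCTgctg
WNT5A (7mer-A1, chr3:55466203-55466232, minus strand): aaaatactacattgtcactgTAAGCTAtac
The 2 matches found for APC lie in bases that are coding in another annotated transcript and are not shown. None of these 5 members was called, and their log2 fold changes were -0.70 for LRP6, -0.53 for APC, -0.09 for ROR1, -0.04 for WNT5A and -0.02 for GSK3B. A match is a description of these letters, not evidence of binding.

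Among the ligands, WNT7B was the dominant mRNA and was lower in MIR21-KO cells, while WNT5B, close to absent in Ctrl, was higher. WNT7B (ENSG00000188064, chr22:45920362-45977129, minus strand), a ligand known from lung development that signals through β-catenin, was measured at 30.2, 30.6 and 29.5 FPKM in Ctrl and at 18.9, 18.3 and 16.2 in MIR21-KO replicates 1 to 3. Every MIR21-KO library lay below every Ctrl library. The means were 30.1 ± 0.538 and 17.8 ± 1.43 FPKM (SD, n = 3 each), 1.69-fold lower, with a log2 fold change of -0.76 ± 0.0804 (SE) and an FDR of 0.000978 by limma. WNT10B (ENSG00000169884, chr12:48965340-48971763, minus strand), another ligand of the β-catenin branch, had 1.70, 2.02 and 1.59 FPKM in Ctrl and 0.307, 0.466 and 0.293 in MIR21-KO. The groups did not overlap, but the MIR21-KO values rested on only 10 to 15 reads. WNT10B was 4.97-fold lower (log2 fold change -2.05 ± 0.243, FDR = 0.00149, limma). Its FDR was 0.0118, 0.0122 and 0.0105 without Ctrl replicate 1, 2 and 3. WNT10B passed the filter on low values only through Ctrl, so it had to differ and its FDRs add no support.

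WNT5B (ENSG00000111186, chr12:1529891-1647243, plus strand), a ligand mostly described in signaling without β-catenin, had 0.474, 0.194 and 0.408 FPKM in Ctrl, from 26, 9 and 24 reads. In MIR21-KO it had 3.55, 2.75 and 3.19 FPKM, from 208, 145 and 178 reads. The lowest MIR21-KO library was thus far above the highest Ctrl library. The means of 0.359 ± 0.146 and 3.16 ± 0.398 FPKM (SD, n = 3 each) differed 8.81-fold, with a log2 fold change of 2.88 ± 0.287 and an FDR of 0.000817 by limma. Leaving out any 1 library gave FDRs of 0.00171 to 0.00666. As WNT5B passed the filter on low values only through MIR21-KO, it had to differ, and its FDRs add no support. Another ligand of that kind, its close relative WNT5A, was not called (log2 fold change -0.04, FDR = 0.902, limma). WNT5A was at 0.880 to 1.06 FPKM in Ctrl and at 0.839 to 1.04 in MIR21-KO. Only 0.12% of the 31-base words of WNT5B are shared with another gene.

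Of the other tested ligands, WNT3 had 1.35 ± 0.173 FPKM in Ctrl and 1.96 ± 0.129 in MIR21-KO without overlap, but was not called (log2 fold change 0.51, FDR = 0.0419). WNT9A was close to the filter at 0.528 and 0.585 FPKM (FDR = 0.760). The remaining 13 ligands were not tested, being under 0.5 FPKM on average. In 3 of them the MIR21-KO libraries had more reads than any Ctrl library, a count given without a share over other genes under the filter. WNT11 had 6, 8 and 6 reads in Ctrl and 23, 22 and 12 in MIR21-KO, WNT6 had 5 in each Ctrl library and 18, 15 and 9 in MIR21-KO, and WNT2B had 17, 27 and 29 against 44, 42 and 34. Fitted without a filter these gave FDRs of 0.0799, 0.0626 and 0.441, so that a difference was not detectable at this depth. WNT2B also shares 21.18% of its exonic bases with ST7L on the other strand, which was at 0.997 to 1.226 FPKM. WNT4 went the other way but with overlap, at 8, 1 and 8 reads in Ctrl and 3, 2 and 0 in MIR21-KO. WNT10A had 0 to 5 reads per library, WNT7A at most 3, WNT2, WNT3A, WNT8B and WNT16 at most 1, and WNT1, WNT8A and WNT9B none in any library. A count of 0 allows a level of up to 3 reads, which for 1 kb of gene is 0.219 to 0.279 FPKM and covers counting error only.

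Summed over all 19 ligands, Wnt mRNA was at 35.7, 36.5 and 35.4 FPKM in Ctrl and at 28.0, 26.9 and 24.4 in MIR21-KO, that is 73.6% of the Ctrl mean. WNT7B made up 83.9% ± 0.690 (SD, n = 3) of this sum in Ctrl cells and 67.3% ± 0.878 (SD, n = 3) in MIR21-KO cells. The share of WNT5B was 1.0% ± 0.419 and 12.0% ± 1.53, and that of WNT3 3.76% ± 0.515 and 7.46% ± 0.899. WNT10B took 4.92% ± 0.534 in Ctrl and 1.35% ± 0.342 in MIR21-KO. WNT7B thus stayed the most abundant ligand mRNA in every library. Of the genes for making and releasing Wnt proteins, the cargo receptor WLS was at 11.6 ± 0.105 FPKM in Ctrl and 11.6 ± 0.233 in MIR21-KO, and the acyltransferase PORCN at 9.95 ± 0.486 and 7.52 ± 0.934 (FDR = 0.0312, not called). These mRNA sums do not tell how much ligand was secreted.

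**Figure D2:**
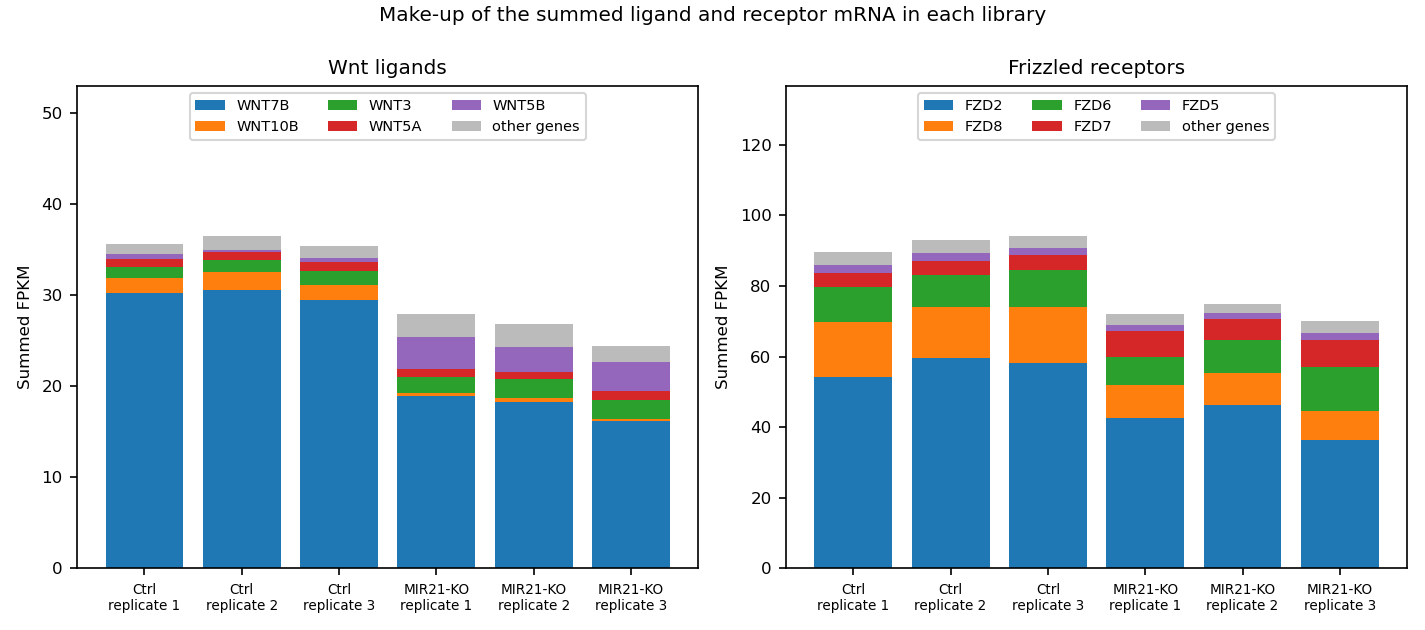
Summed FPKM of the 19 Wnt ligand genes (left) and the 10 Frizzled genes (right) in each library, split by gene. The ligand sum lies at 35.4 to 36.5 FPKM in Ctrl and at 24.4 to 28.0 in MIR21-KO, the WNT5B segment is visible mainly in the MIR21-KO bars, and the Frizzled sum lies at 89.6 to 94.3 FPKM in Ctrl and at 70.0 to 74.9 in MIR21-KO.

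Frizzled receptors differed in both directions, with FZD8 and FZD9 lower and FZD7 higher. FZD8 (ENSG00000177283, chr10:35638249-35642278, minus strand) was at 15.8, 14.3 and 16.0 FPKM in Ctrl and 9.40, 9.06 and 8.36 in MIR21-KO. The MIR21-KO libraries were close together and all lower. The means were 15.3 ± 0.942 and 8.94 ± 0.530 FPKM, 1.72-fold lower, and limma gave a log2 fold change of -0.77 ± 0.0844 with an FDR of 0.00111. FZD7 (ENSG00000155760, chr2:202034587-202038445, plus strand) was at 3.75, 4.05 and 4.21 FPKM in Ctrl and 7.49, 5.88 and 7.47 in MIR21-KO, of which replicate 2 was nearest to Ctrl. It was 1.74-fold higher (log2 fold change 0.77 ± 0.123, FDR = 0.00452, limma). This call was lost without Ctrl replicate 1, 2 or 3 (FDR = 0.0236, 0.0208 and 0.0194) and without MIR21-KO replicate 1 (0.0113).

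FZD9 (ENSG00000188763, chr7:73433783-73436120, plus strand) was a low mRNA at 1.14, 1.35 and 0.969 FPKM in Ctrl and 0.471, 0.314 and 0.297 in MIR21-KO. The groups did not overlap, on 31 to 34 reads per Ctrl library and 9 to 15 per MIR21-KO library. With a log2 fold change of -1.45 ± 0.281 and an FDR of 0.00913 by limma it just passed the limit. FZD9 reached the filter on low values only through Ctrl, so it had to differ and its FDRs add no support. Leaving out Ctrl replicates 1 to 3 gave FDRs of 0.0426, 0.0463 and 0.0302, and leaving out MIR21-KO replicates 1 to 3 gave 0.0102, 0.0347 and 0.0143.

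FZD2 was the most abundant Frizzled mRNA, at 54.1, 59.7 and 58.1 FPKM in Ctrl and 42.5, 46.2 and 36.3 in MIR21-KO. All MIR21-KO libraries lay below Ctrl, yet FZD2 was not called (log2 fold change -0.46 ± 0.105, FDR = 0.0163, limma). It passed the limit with GC and length trends removed (log2 fold change -0.62, FDR = 0.00275), with voom on the reads (0.00677), after scaling by total reads (0.00674) and among protein-coding genes alone (0.00767). FZD2 did not pass it in any fit with 1 library left out (limma FDRs of 0.0104 to 0.0654) or with a replicate block (0.0465). FZD6 had 9.89 ± 0.639 and 10.0 ± 2.29 FPKM (log2 fold change -0.01, FDR = 0.984). The other tested Frizzled genes had group means of 0.646 to 2.19 FPKM. FZD3 (-0.64) and FZD1 (0.59) did not overlap between groups but had FDRs of 0.106 and 0.165, and FZD5 (-0.30) and FZD4 (0.29) had FDRs of 0.233 and 0.461. FZD4 shares 18.95% of its exonic bases with PRSS23 on the other strand, which was at 28.3 to 61.5 FPKM. The libraries were stranded, but whether counting used the strand is not given. FZD10 had no read. Of the 31-base words of FZD2, 7.20% occur in FZD7, FZD1, FZD5 or other genes, and of those of FZD7 3.08%, so that a small part of these reads could have been assigned either way.

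Summed over the family, Frizzled mRNA was at 92.3 ± 2.39 FPKM in Ctrl and 72.3 ± 2.47 in MIR21-KO, 78.3% of the Ctrl mean. FZD7 accounted for 4.33% ± 0.143 of the sum in Ctrl and 9.65% ± 1.56 in MIR21-KO, and FZD8 for 16.6% ± 1.16 and 12.4% ± 0.604. The share of FZD2 was 62.1% ± 1.95 and 57.5% ± 5.10, which overlapped between the groups.

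**Figure D3:**
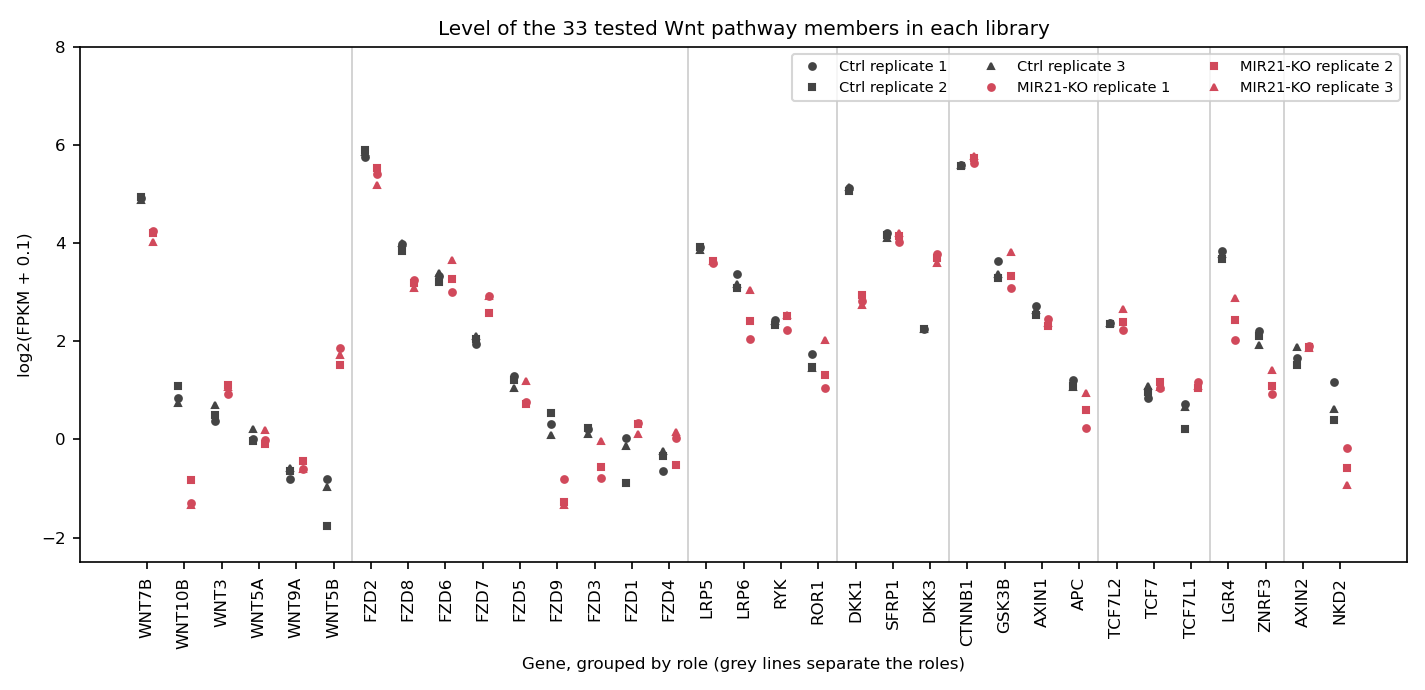
Level of each of the 33 tested members in each library as log2(FPKM + 0.1), Ctrl in grey and MIR21-KO in red, with the shape of the point giving the replicate and grey lines separating the roles. FZD2, CTNNB1, DKK1 and WNT7B are the highest members in Ctrl, and the MIR21-KO points of LRP6, ROR1, LGR4, GSK3B and APC spread more widely than their Ctrl points.

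None of the 4 tested co-receptors and other Wnt receptors was called, too few genes to set against the 16.0% of all tested genes. LRP5 was at 14.8 ± 0.399 FPKM in Ctrl and 12.3 ± 0.243 in MIR21-KO, a small difference without overlap (log2 fold change -0.27 ± 0.0664, FDR = 0.0224, limma). LRP6 was at 10.3, 8.38 and 8.84 FPKM in Ctrl and at 4.04, 5.25 and 8.21 in MIR21-KO. MIR21-KO replicate 3 lay just under the lowest Ctrl library and the others far below it. The log2 fold change was -0.70 ± 0.247 with an FDR of 0.0722, and without MIR21-KO replicate 3 it was -0.97 with an FDR of 0.00428 (limma). No other fit with 1 library left out gave a call for LRP6, with FDRs of up to 0.194. Both mRNAs together made 24.0 ± 1.17 FPKM in Ctrl and 18.1 ± 2.33 in MIR21-KO, 75.5% of the Ctrl mean. RYK, a receptor of the branches without β-catenin, had 5.16 ± 0.218 and 5.33 ± 0.615 FPKM (FDR = 0.806). ROR1 had 2.85 ± 0.326 and 2.79 ± 1.07 FPKM (FDR = 0.817), and ROR2 had 0 to 4 reads per library.

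The secreted proteins of the Dickkopf family moved in opposite directions, and both calls held in every alternative fit. DKK1 (ENSG00000107984, chr10:52314296-52318042, plus strand), which blocks LRP5 and LRP6, had 34.8, 33.5 and 35.1 FPKM in Ctrl and 7.02, 7.63 and 6.61 in MIR21-KO. The libraries of each group were close together and far from the other group. The means of 34.5 ± 0.851 and 7.08 ± 0.514 FPKM (SD, n = 3 each) differed 4.87-fold, with a log2 fold change of -2.27 ± 0.0782 and an FDR of 2.46e-05 by limma. DKK3 (ENSG00000050165, chr11:11963106-12009769, minus strand) is a divergent family member whose effect on Wnt signaling differs between settings. It was at 4.66, 4.69 and 4.65 FPKM in Ctrl and 13.6, 12.8 and 12.1 in MIR21-KO, again without overlap. DKK3 was 2.75-fold higher (log2 fold change 1.44 ± 0.0793, FDR = 9.89e-05, limma). SFRP1, which binds Wnt ligands, was at 17.7 ± 0.637 and 17.4 ± 1.10 FPKM (log2 fold change -0.02, FDR = 0.832). Over the 19 alternatives the log2 fold change of DKK1 ranged from -2.32 to -2.14 and its FDR from 1.06e-06 to 0.00139.

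Because DKK1 is a known target of β-catenin, members' promoters were searched on both strands for the TCF/LEF words CTTTGAA and CTTTGAT only. Windows ran from 250 bases before to 50 after the RefSeq start, and other forms of the TCF/LEF word were not searched. The 37 members with an entry had 45 such windows. Members without an entry were not searched, among them AXIN2, NKD1 and LGR5 and the called members ZNRF3, WNT7B, WNT10B, FZD7 and DKK3. Of the windows searched, only that of DKK1 held either word (2.22%), against 6.86% of 35116 windows over all genes. The word begins 95 bases before the start on the gene's strand and stands in capitals in the promoter, chr10:52314031-52314330, plus strand (GRCh38.p14, RefSeq).
DKK1 promoter: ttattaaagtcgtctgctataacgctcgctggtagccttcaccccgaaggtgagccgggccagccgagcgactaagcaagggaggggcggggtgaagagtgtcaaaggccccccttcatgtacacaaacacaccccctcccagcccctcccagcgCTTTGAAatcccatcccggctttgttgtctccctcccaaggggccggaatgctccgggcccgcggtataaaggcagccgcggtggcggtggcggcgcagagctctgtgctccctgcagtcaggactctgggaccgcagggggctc
The match describes these letters only, and its absence from other windows says nothing about the factors.

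Of the 4 members for turnover of Frizzled receptors or R-spondin binding, the 2 tested, LGR4 and ZNRF3, were lower in MIR21-KO cells. That is too few to set against the 8.38% of all tested genes called lower. LGR6, an LGR receptor outside the members, was higher (log2 fold change 1.72, FDR = 0.00190, limma). LGR4 (ENSG00000205213, chr11:27365961-27472775, minus strand), a receptor for R-spondins, was at 14.3, 12.6 and 13.6 FPKM in Ctrl and 3.96, 5.30 and 7.25 in MIR21-KO. The MIR21-KO libraries differed among themselves but all lay below Ctrl. The means were 13.5 ± 0.833 and 5.50 ± 1.65 FPKM, 2.45-fold lower, with a log2 fold change of -1.32 ± 0.206 and an FDR of 0.00432 by limma. The call was lost without Ctrl replicates 1, 2 and 3 (FDR = 0.0226, 0.0180 and 0.0218) and without MIR21-KO replicate 2 (0.0238). ZNRF3 (ENSG00000183579, chr22:28883592-29057487, plus strand), a ubiquitin ligase that removes Frizzled receptors, was at 4.52, 4.2 and 3.67 FPKM in Ctrl and 1.80, 2.02 and 2.58 in MIR21-KO. No MIR21-KO library reached the Ctrl range (log2 fold change -0.93 ± 0.162, FDR = 0.00636, limma). Without Ctrl replicates 1 to 3 its FDR was 0.0315, 0.0287 and 0.0198, and it was 0.0126 and 0.0329 without MIR21-KO replicates 1 and 2.

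RNF43 (ENSG00000108375, chr17:58352500-58417595, minus strand), the related ligase, was nearly absent from MIR21-KO libraries. It had 72, 66 and 92 reads in Ctrl (0.754, 0.818 and 0.896 FPKM) and 2, 0 and 1 in MIR21-KO. The 230 reads against 3 correspond, at the depths of the libraries, to an 80.1-fold difference with a 95% exact interval of 27.1 to 391.4 that covers counting error only. With a mean of 0.416 FPKM over the libraries RNF43 fell just under the filter, and the fit without a filter gave a log2 fold change of -3.07 and an FDR of 0.00136. Its value is uncertain in another way: 59.19% of its 31-base words also occur in other annotated genes, chiefly AC004687.2, and 20.27% of its exonic bases overlap TSPOAP1-AS1 on the other strand, a gene at 1.89 to 3.28 FPKM. LGR5, the stem cell marker and relative of LGR4, had 1 read in Ctrl and 5 in MIR21-KO in all.

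None of the 4 tested genes of the destruction complex and β-catenin and none of the 3 tested TCF/LEF factors was called. These are too few genes to set against the 16.0% of all tested genes. CTNNB1, β-catenin itself, was at 47.9, 47.6 and 47.9 FPKM in Ctrl and 49.9, 53.4 and 54.7 in MIR21-KO. The groups did not overlap, but the difference was small (log2 fold change 0.14 ± 0.0689, FDR = 0.172, limma). After removal of each library's trends on GC content and length it was 0.22 with an FDR of 0.00979. Leaving out 1 library in turn gave FDRs of 0.0833 to 0.373 for CTNNB1 by limma. The scaffold AXIN1 had 6.12 ± 0.398 and 5.11 ± 0.235 FPKM (log2 fold change -0.25, FDR = 0.0768), and the scaffold APC 2.08 ± 0.112 and 1.44 ± 0.368 (log2 fold change -0.53, FDR = 0.0908), neither with overlap. The kinase GSK3B had 10.8 ± 1.36 and 10.8 ± 2.92 FPKM (FDR = 0.939). Among the transcription factors, TCF7L2 had 5.06 ± 0.0295 and 5.32 ± 0.836 FPKM (FDR = 0.751), and TCF7 1.86 ± 0.167 and 2.04 ± 0.102 (FDR = 0.498). TCF7L1 was at 1.36 ± 0.271 and 2.06 ± 0.0944 FPKM without overlap (log2 fold change 0.58, FDR = 0.0490), and LEF1 had 2 reads in 1 library.

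The feedback inhibitors inside the cell did not move as a group. AXIN2, the scaffold often read as a marker of β-catenin activity, was at 3.05, 2.76 and 3.58 FPKM in Ctrl and 3.64, 3.61 and 3.56 in MIR21-KO. These overlapped, with means of 3.13 ± 0.418 and 3.60 ± 0.0420 (log2 fold change 0.20 ± 0.123, FDR = 0.250, limma). Of its 31-base words 24.74% are shared, chiefly with AC004805.1. NKD2, which binds Dishevelled, was at 2.15, 1.22 and 1.44 FPKM in Ctrl and 0.789, 0.566 and 0.428 in MIR21-KO, all lower but not called (log2 fold change -1.29 ± 0.295, FDR = 0.0171, limma). It passed the limit with GC and length trends removed (log2 fold change -1.44, FDR = 0.0063), with voom (0.00741), with a minimum mean of 10 reads (0.00894) and among protein-coding genes alone (0.00431). NKD2 did not pass it in any fit with 1 library left out (limma FDRs of 0.0146 to 0.0648) or with a replicate block (0.0267). NKD1, under the filter, had 48, 31 and 55 reads in Ctrl and 75, 86 and 89 in MIR21-KO, the opposite order (FDR without a filter 0.193).

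The order of the MIR21-KO libraries differed between members of low and high GC content. Replicate 1 was lowest and replicate 3 highest in 13 of the 33 tested members, against 28.5% of all tested genes. Of 11 members under 45% GC, 9 had this order, and of the 22 others, 4. The 2 members of highest GC content went the other way, with replicate 3 minus replicate 1 at -0.75 for NKD2 and -0.53 for FZD9 on the log2 scale. Not every member under 45% GC spread widely, since this difference was 0.13 for CTNNB1, -0.09 for DKK1 and 0.20 for WNT5A. For LRP6 (40.2% GC), replicate 3 exceeded replicate 1 by 1.0 on the log2 scale. That difference was 0.54 once trends on GC content and length were removed from each library. For FZD3 it went from 0.76 to 0.09, for APC from 0.70 to 0.15, for LGR4 from 0.86 to 0.62 and for ROR1 from 0.98 to 0.79. Across the 33 members, which share libraries and base composition, Pearson's r between this difference and GC content was -0.78, and across 15955 genes it was -0.281, both given as descriptions. Between Ctrl replicates 3 and 1 it was 0.063 across genes. With the trends removed, FDRs by limma were 0.0011 for LGR4, 0.0037 for ZNRF3, 0.0171 for LRP6 and 0.0388 for APC. Whether GC content caused these differences was not tested.

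**Figure D4:**
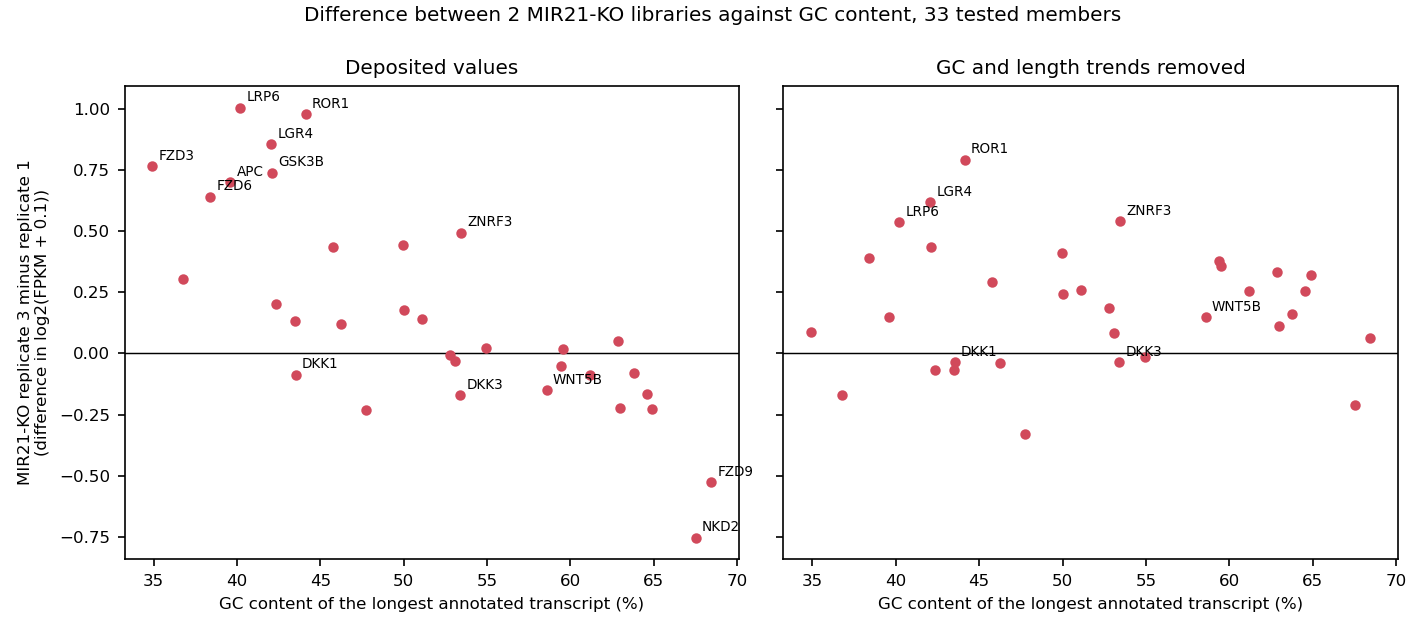
Difference between MIR21-KO replicate 3 and replicate 1 in log2(FPKM + 0.1) for each of the 33 tested members, against the GC content of its longest annotated transcript in percent. With the deposited values (left) members under 45% GC such as LRP6 (1.0) and FZD3 (0.76) lie highest, and with trends removed (right) the values are 0.54 and 0.09.

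Other genes of the pathway were taken from lists of 81 genes by role, of which 60 were tested. Called were 11 higher and 5 lower (26.7%, against 16.0% of all tested genes), with a median log2 fold change of -0.12 (-0.02 over all tested genes). CCDC88C is among them but passed the filter on low values only through Ctrl, so it had to differ. Since the lists were chosen with earlier results known, these shares describe them and support nothing. Among R-spondins and other agonists, 4 of 10 were tested and all 4 were called, a list too short to set against the 16.0% of all tested genes. RSPO3, an R-spondin and so a ligand of LGR4, was at 33.6, 32.9 and 33.7 FPKM in Ctrl and 11.3, 11.8 and 11.8 in MIR21-KO. With tight, separate groups, its log2 fold change was -1.51 ± 0.063 (FDR = 4.19e-05, limma). LGR6, the third LGR receptor, rose from 0.740 ± 0.139 to 2.68 ± 0.572 FPKM (log2 fold change 1.72, FDR = 0.00190), and was lost without Ctrl replicate 1 or MIR21-KO replicate 2 (FDR of at most 0.0126). RECK and ADGRA2, which form a receptor complex for WNT7A and WNT7B on the cell surface, rose from 1.68 ± 0.128 to 5.32 ± 0.615 FPKM (log2 fold change 1.60, FDR = 0.000337) and from 1.09 ± 0.0722 to 2.08 ± 0.0331 FPKM (0.87, FDR = 0.00425). The call for ADGRA2 was lost without any library but MIR21-KO replicate 3 (up to 0.0272).

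Of the 4 tested antagonists outside the members, SFRP5 was called higher (2.26 ± 0.287 to 5.74 ± 1.94 FPKM, FDR = 0.00841), and of 3 tested genes for ligand processing TRABD2A, a membrane protease that cleaves Wnt proteins (log2 fold change 1.06, FDR = 0.00222). Of 18 tested cytoplasmic transducers 2 were called (11.1%), a share under the 16.0% of all tested genes. DACT1, which binds Dishevelled, rose from 0.725 ± 0.0391 to 3.34 ± 0.361 FPKM (log2 fold change 2.05, FDR = 0.000242), and CCDC88C was at 1.21 ± 0.207 FPKM in Ctrl and 0.406 ± 0.104 in MIR21-KO. Of 18 nuclear cofactors, 3 rose and 2 fell, with Groucho corepressors on both sides. TLE1 fell from 21.3 ± 1.0 to 9.40 ± 1.07 FPKM (log2 fold change -1.17, FDR = 0.000472) and TLE4 from 5.79 ± 0.227 to 3.62 ± 0.532 (-0.67, FDR = 0.00843), whereas TLE2 (1.23, FDR = 0.00522) and TLE3 (0.95, FDR = 0.00351) rose. CTNNBIP1, which binds β-catenin and keeps it from TCF factors, rose from 3.42 ± 0.206 to 6.03 ± 0.771 FPKM (0.79, FDR = 0.00373). Of 13 tested genes of planar cell polarity and related signaling, PTK7 (1.19, FDR = 0.00159) and VANGL2 (0.79, FDR = 0.00961) rose and PRICKLE2 (-0.90, FDR = 0.00631) fell. Of the genes named in this paragraph DACT1 and TLE1 kept their call whichever library was left out. The others, CCDC88C aside, lost it without MIR21-KO replicate 2 and, save PTK7, without each single Ctrl library as well, and their highest FDRs with 1 library left out ranged from 0.0131 for PTK7 to 0.0478 for VANGL2. PTK7 was lost without Ctrl replicate 3 too.

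A list of 24 known β-catenin targets outside the members was counted in the same way. Of 15 tested, 5 rose and 5 fell (66.7% called, against 16.0% of all tested genes), and the median log2 fold change was 0.15. This list too was chosen with earlier results known, so its share is a description. The largest falls were those of CCND1, the cyclin of the G1 phase, from 78.6 ± 3.02 to 26.8 ± 1.52 FPKM (log2 fold change -1.55, FDR = 6.44e-05), ID2 (-1.32, FDR = 0.000472) and MMP7 (-0.78, FDR = 0.00569). The largest rises were those of TNFRSF19, from 0.858 ± 0.147 to 3.39 ± 0.598 FPKM (1.86, FDR = 0.000978), the angiogenic factor VEGFA, from 3.04 ± 0.0257 to 8.65 ± 0.588 FPKM (1.48, FDR = 0.000138), and PPARD (0.80, FDR = 0.00327). MYC was at 38.7 ± 2.55 and 39.2 ± 0.899 FPKM (FDR = 0.862), and SP5 had at most 2 reads per library. CCND1, ID2, TNFRSF19 and VEGFA were called whichever library was left out, while MMP7 and PPARD were lost without any 1 Ctrl library and without MIR21-KO replicate 2, with FDRs of up to 0.0279 and 0.0199. These genes also answer to other pathways, and no direction was shared by the list.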

How the data were processed

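PolyA RNA-seq of 3 Ctrl and 3 MIR21-KO libraries of A549 cells was analysed, with groups and replicate numbers from the sample titles. The authors deposited FPKM per gene together with their own log2 fold changes, p-values and FDRs of the same comparison, which were not used. The submitters' processing notes name cutadapt 1.14, HISAT2 2.1.0, SAMtools 1.5, featureCounts 1.5.3, edgeR 3.18.1 and hg38, and the annotation release is not given in the sources used here. FPKM times gene length gave whole reads (within 0.01 reads) for 100% of values, and the implied library sizes were 0.9497 to 1.0304 times the summed reads, so a scaling had been applied. All 37 mitochondrial genes were listed at 0, so a listed 0 can stem from upstream processing.

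Two-sided tests were run with limma 3.58.1 (R 4.3.3; eBayes with trend and robust fitting, no covariate) on log2(FPKM + 0.1) of all genes averaging 0.5 FPKM or more. Where nothing tells separate cultures apart, p-values measure the spread between these libraries. Same-numbered libraries did not deviate together (correlations of -0.171, -0.018 and -0.017), so numbers were not used as pairs.

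Coordinates, GC content, 3′ UTRs and shared words came from GENCODE 29, which matched all 52 members by identifier, and miRNA and promoter sequences from RefSeq. Members and lists were chosen with earlier results of these data known. Called members are given with every library, members of at least 5 FPKM by mean and SD, and from each other list up to 3 called rises and 3 falls. WLS, PORCN, MYC and SP5 were named after their values were seen. The alternatives were other filters, pseudocounts, scalings and FDR limits, limma without trend, voom on the reads, protein-coding genes alone, each library left out, a replicate block and removal of GC and length trends (lowess, span 0.3).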

Additional observations from a re-analysis of the deposited data

How the results depend on the processing

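Of 19 alternatives, DKK1, DKK3 and WNT5B kept their call in all and WNT7B and FZD8 in 18, being lost with a replicate block (FDR = 0.0101 and 0.0126). WNT10B kept it in 16, LGR4 and FZD7 in 12, ZNRF3 in 10 and FZD9 in 9 of 18 (it has no value at a mean of at least 1 FPKM), and no called member changed sign. For WNT5B, WNT10B and FZD9, which passed the filter on low values through a single group, kept calls support nothing. With the replicate block, which could not be backed by a pairing of the libraries, 651 genes were called in all, 2 members were called lower (DKK1 and WNT10B), as were 4 other pathway genes and 4 β-catenin targets called in either direction. Leaving out 1 library gave 768 to 3400 genes, 3 to 7 members called lower, 4 to 20 other pathway genes and 4 to 10 targets. At an FDR under 0.05 there were 5114 genes, 5 members called higher and 29 other pathway genes. With GC and length trends removed 3958 genes were called, and with the block added 9 other pathway genes and 6 targets. What caused these shifts was not tested.

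The sign changed only for members near 0 that were not called. With 1 library left out in turn, the log2 fold change ranged from -0.12 to 0.036 for WNT5A, from -0.18 to 0.14 for FZD6, from -0.23 to 0.14 for GSK3B, from -0.37 to 0.12 for ROR1, from -0.063 to 0.026 for SFRP1, from -0.013 to 0.14 for RYK and from -0.058 to 0.16 for TCF7L2. With GC and length trends removed it was 0.068 for WNT5A, 0.16 for FZD6 and 0.084 for GSK3B, and the same with the replicate block added. Median-ratio and total-read scaling shifted the all-gene median by -0.0060 and -0.0348. Few reads limit WNT6, WNT11, FZD9 and the MIR21-KO side of WNT10B and RNF43.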
